A study of Mus musculus with 12 samples.

Results

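The genes described here were Atf4 and 9 genes of the stress response that it serves: Atf5, Asns, Trib3, Psat1, Phgdh, Psph, Chac1, Sesn2 and Ddit3. They were picked by symbol from a table of liver transcripts, where each of the 10 had 1 line among 23849 symbols, and 8 of them reached the mean of 1 FPKM (sequenced fragments scaled to the length of the transcript and to the depth of the library) that was needed to be tested. Psat1 and Phgdh did not, and are given as levels. Whole liver of male C57BL/6J mice aged 8 weeks was sequenced, 1 library per mouse and 3 mice in each of 4 groups. High-fat diet (HFD) was given to all 12 for 6 weeks, and over the last 2 weeks all were gavaged once a day at ZT11, control mice (Cntrl) with drinking water and treated mice with Policaptil Gel Retard, a gel-forming mixture of fibers that the labels call Libramed. Livers were collected at ZT0 or ZT12, the end and the start of the active phase, with Zeitgeber time (ZT) counted in hours from lights on. By this schedule ZT12 came sooner after gavage than ZT0, so time of day and time since gavage cannot be told apart. The comparisons ask whether these genes differ between the times of day under HFD, whether they differ between treated and control mice, and whether the time difference is altered by the treatment.

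ATF4 is a transcription factor made mainly when the translation factor eIF2α is phosphorylated: general translation then slows, while upstream reading frames in the Atf4 transcript let its own coding sequence be read. Separate kinases phosphorylate eIF2α on shortage of amino acids (GCN2), on misfolded protein in the endoplasmic reticulum (PERK) and on other stresses, and ATF4 then binds DNA as a dimer with C/EBP family proteins at genes of amino acid synthesis, amino acid transport and tRNA charging. In liver this pathway is known to respond to diets short of protein and to load on the endoplasmic reticulum. Because the step that is controlled is translation, the level of Atf4 mRNA is not a measure of ATF4 protein, and phosphorylation and protein were not analysed here.

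The sequence that such dimers are known to bind was searched in the promoters, to show which of the 10 genes carry it next to their start. The core searched was TGATGNAA, or TTNCATCA on the other strand, in windows from 250 bases before to 50 after each RefSeq start site in GRCm38.p6, and 12 windows represented all 10 genes. It was found in 3 genes, those of Asns, Trib3 and Chac1, 1 match each, and in 3.97% of all 32851 windows of this length. These 3 windows are printed on the coding strand of the gene, with the match in capitals.
Asns, chr6:7693160-7693459, minus strand: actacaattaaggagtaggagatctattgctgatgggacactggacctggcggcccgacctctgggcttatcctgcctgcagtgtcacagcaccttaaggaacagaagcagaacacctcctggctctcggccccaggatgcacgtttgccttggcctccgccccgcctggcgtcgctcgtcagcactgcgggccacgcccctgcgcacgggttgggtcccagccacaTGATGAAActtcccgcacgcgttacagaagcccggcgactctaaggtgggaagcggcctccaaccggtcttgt
Trib3, chr2:152344011-152344310, minus strand: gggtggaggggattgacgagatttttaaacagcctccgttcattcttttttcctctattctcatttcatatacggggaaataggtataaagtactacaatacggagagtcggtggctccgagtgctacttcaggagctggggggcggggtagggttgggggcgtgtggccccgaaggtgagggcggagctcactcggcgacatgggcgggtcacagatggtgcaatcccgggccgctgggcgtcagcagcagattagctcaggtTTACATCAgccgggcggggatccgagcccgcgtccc
Chac1, chr2:119350992-119351291, plus strand: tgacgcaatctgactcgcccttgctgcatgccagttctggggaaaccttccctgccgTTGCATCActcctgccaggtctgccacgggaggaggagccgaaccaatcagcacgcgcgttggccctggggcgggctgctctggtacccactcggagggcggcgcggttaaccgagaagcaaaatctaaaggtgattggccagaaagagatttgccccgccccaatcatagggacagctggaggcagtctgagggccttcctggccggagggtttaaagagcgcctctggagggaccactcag
The match began 23 bases before the RefSeq start site of Asns, 14 bases after that of Trib3 and 193 bases before that of Chac1. GENCODE puts the starts of Asns and Trib3 at 7693254 and 152344032. By these the Asns match (7693225 to 7693232) lies after the start and the Trib3 match (152344039 to 152344046) before it. In the windows of Atf4, Atf5, Ddit3, Psph, Sesn2, Psat1 and Phgdh these letters were not present. A match is a description of the letters, and binding was not measured.

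The libraries differed in ways that touch the values given here. The summed FPKM of a library was 634683 to 759355, the number of reads behind them is unknown, and the depth estimated from the lowest genes differed by up to 1.79 times between libraries. Of 8 hepatocyte markers 7 were high in every library (summed level 29869 to 44861 FPKM) and albumin (Alb) was listed at 0 in all 12, which may be a failed estimate. Libramed ZT12 replicate 3 stood apart: 5 skeletal muscle transcripts were highest there, among them Acta1 at 16.4 FPKM and Ckm at 10.4 FPKM, both listed at 0 in the other 11 libraries. Where a call in the set, or a list count over time, changed without this library, the value without it is given. Changes of direction on leaving out single libraries are given as ranges at the end. Summed markers of endothelial cells (3.37 to 4.94 FPKM at ZT12, 5.32 to 8.32 at ZT0) and of stellate cells (3.28 to 4.70 and 5.57 to 9.80 FPKM) were lower at ZT12 in both treatments. Over both treatments 3 of 3 and 3 of 4 tested markers were called lower, beside 13.8% of all genes. In Cntrl mice alone 0 and 0 were called, beside 4.78% lower, and in Libramed mice 1 and 3, beside 5.36%. Means of the untested endothelial marker Lyve1 at ZT0 and ZT12 were 0.911 and 0.329 FPKM in Cntrl and 0.328 and 0.344 in Libramed mice. The part of these cells in the time differences that follow was not tested. Tests were run in limma on log2(FPKM + 1), where changes at low FPKM come out too small, and a gene was called at a Benjamini-Hochberg adjusted p under 0.05 over the 9806 symbols tested. Exact permutation tests were added for each of the 10 genes. With 3 mice against 3 their smallest two-sided p is 0.1, and with times exchanged within each treatment it is 0.005.

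The 10 genes spanned a wide range of levels. Atf5 had the highest mean over the 12 mice (279 FPKM, rank 337 of all symbols), followed by Atf4 (112 FPKM, rank 762) and Ddit3 (19.5 FPKM). Psph (5.98 FPKM), Asns (4.93), Trib3 (3.80), Chac1 (3.19) and Sesn2 (2.09) were of low abundance. Psat1 (0.411 FPKM) and Phgdh (0.0149 FPKM) were close to the lower end of the table. The order of the leading pair did not hold in each mouse: in Libramed ZT12 mice 2 and 3 Atf5, at 99.9 and 81.6 FPKM, was below Atf4, at 105 and 94.2 FPKM.

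**Figure D1:**
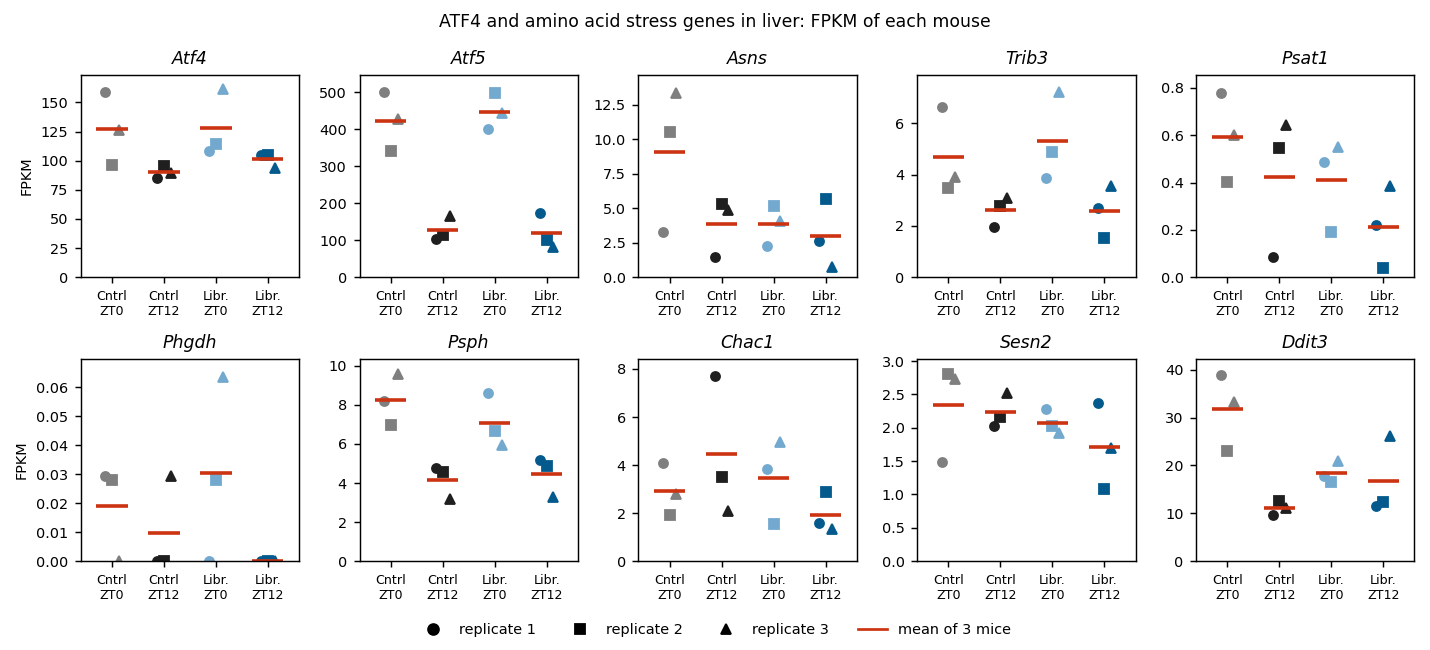
FPKM (y axis, linear from 0, one scale per gene) of the 10 genes in each of the 12 mice, by group (x axis). Symbols give the replicate and red lines the mean of 3 mice; Atf5 is at 342 to 501 FPKM in all ZT0 mice and at 81.6 to 173 FPKM in all ZT12 mice, while Asns and Chac1 spread widely within groups.

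Among the transcription factors, Atf5 differed most between the times. ATF5 is a close relative of ATF4 whose transcript is also under translational control by eIF2α. Atf5 (chromosome 7, 44812256 to 44816658, minus strand, in mm10) was at 501, 342 and 427 FPKM in Cntrl ZT0 mice 1, 2 and 3, and at 104, 113 and 164 FPKM in Cntrl ZT12 mice. In Libramed mice it was at 399.9, 499 and 444 FPKM at ZT0 and at 173, 99.9 and 81.6 FPKM at ZT12. Every ZT0 mouse of either treatment was above every ZT12 mouse. The mean at ZT0 was 3.33 times that at ZT12 in Cntrl mice and 3.79 times in Libramed mice. The log2 fold change of ZT12 against ZT0 was −1.74 ± 0.21 (SE; limma adjusted p = 0.00695) in Cntrl mice and −1.98 ± 0.26 (limma adjusted p = 0.00565) in Libramed mice. Over both treatments it was −1.86 ± 0.18 (limma adjusted p = 2.09e-05, exact permutation p = 0.005, the smallest possible). The gene overlaps Nup62 and Il4i1 on the opposite strand over 571 and 272 bases, and the sources differ on whether the libraries kept strand, so reads of those stretches may belong to either gene.

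Atf4 itself had a smaller difference, and was called only over both treatments. Atf4 (chromosome 15, 80255184 to 80257541, plus strand) was at 159, 96.0 and 127 FPKM in Cntrl ZT0 mice and at 84.9, 95.6 and 89.6 FPKM in Cntrl ZT12 mice. In Libramed mice the values were 108, 114 and 162 FPKM at ZT0 and 105, 105 and 94.2 FPKM at ZT12. Within each treatment the ZT0 mice were all above the ZT12 mice, but by a narrow margin in the lowest of them, and Cntrl ZT0 mouse 2 was below 2 of the Libramed ZT12 mice. Means at ZT0 were 1.41 times those at ZT12 in Cntrl mice and 1.26 times in Libramed mice. This was a log2 fold change of −0.47 ± 0.18 (limma p = 0.0340, adjusted p = 0.145) in Cntrl mice and −0.31 ± 0.16 (limma p = 0.0823, adjusted p = 0.235) in Libramed mice, each with an exact permutation p of 0.1. It was −0.39 ± 0.12 over both (limma adjusted p = 0.0317, exact permutation p = 0.005). This call was lost on leaving out any 1 of Cntrl ZT0 replicate 1 or 3, Cntrl ZT12 replicate 1, 2 or 3, Libramed ZT0 replicate 3 and Libramed ZT12 replicate 3 (adjusted p 0.0506 to 0.0669). In Cntrl mice alone a call was gained without Cntrl ZT0 replicate 2 (log2 fold change −0.65, limma adjusted p = 0.0305).

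Ddit3 encodes CHOP, a C/EBP family protein that ATF4 induces under lasting stress and that can promote cell death. Ddit3 (chromosome 10, 127290774 to 127296288, plus strand) was at 38.8, 23.0 and 33.3 FPKM in Cntrl ZT0 mice, above every mouse of the other groups except 1. It was at 9.57, 12.6 and 11.04 FPKM in Cntrl ZT12 mice, 17.9, 16.6 and 20.8 FPKM in Libramed ZT0 mice and 11.6, 12.5 and 26.2 FPKM in Libramed ZT12 mice. The value of 26.2 FPKM came from the library with muscle transcripts and exceeded the lowest Cntrl ZT0 mouse, while the other Libramed ZT12 mice were within the range of Cntrl ZT12. In Cntrl mice the log2 fold change over time was −1.42 ± 0.20 (limma adjusted p = 0.0101), and the mean at ZT0 was 2.87 times that at ZT12. In Libramed mice it was −0.22 ± 0.28 (limma p = 0.469, adjusted p = 0.666, exact permutation p = 0.6). Without Libramed ZT12 replicate 3 it was −0.57 and was called (limma adjusted p = 0.0476), the ZT12 mice left, at 11.6 and 12.5 FPKM, then being below all Libramed ZT0 mice. Over both treatments it was −0.82 ± 0.25 (limma adjusted p = 0.0273, exact permutation p = 0.03). Without that library the value over both treatments was −1.04 (limma adjusted p = 0.00164), and without any 1 of Cntrl ZT0 replicate 1 or 3 or Cntrl ZT12 replicate 1, 2 or 3 it was no longer called (adjusted p 0.0554 to 0.0627). Ddit3 shares 68 bases with Mars and 15 with Gm4189 on the opposite strand. The annotation lists another entry of the symbol Ddit3 within the same span (127290829 to 127293753).

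The regulators downstream of ATF4 were of low abundance and did not move alike. Trib3, a pseudokinase induced by ATF4 and CHOP that binds AKT and feeds back on ATF4, was at 6.65, 3.49 and 3.90 FPKM in Cntrl ZT0 mice and at 1.96, 2.79 and 3.07 FPKM in Cntrl ZT12 mice. In Libramed mice it was at 3.86, 4.89 and 7.24 FPKM at ZT0 and at 2.71, 1.51 and 3.57 FPKM at ZT12. The times did not overlap within either treatment, although the highest Libramed ZT12 mouse was above the lowest Cntrl ZT0 mouse. Log2 fold changes were −0.63 ± 0.22 in Cntrl (limma adjusted p = 0.124) and −0.82 ± 0.26 in Libramed mice (limma adjusted p = 0.0858). Over both treatments Trib3 fell by 0.72 ± 0.18 on the log2 scale (limma adjusted p = 0.0107, exact permutation p = 0.005).

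Chac1 encodes an enzyme that breaks down glutathione and is a target of the ATF4 and CHOP branch. It was at 4.10, 1.93 and 2.78 FPKM in Cntrl ZT0 mice and at 7.71, 3.52 and 2.11 FPKM in Cntrl ZT12 mice. Libramed mice had 3.83, 1.55 and 4.98 FPKM at ZT0 and 1.59, 2.89 and 1.34 FPKM at ZT12. All 4 groups overlapped, and the highest mouse of a group was 2.13 to 3.66 times its lowest. The log2 fold change over both treatments was −0.09, with a 95% interval of −0.74 to 0.56 (limma adjusted p = 0.852).

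Sesn2 encodes a sestrin, which senses leucine and holds back the growth kinase complex mTORC1. It was at 1.49, 2.81 and 2.73 FPKM in Cntrl ZT0 mice, 2.02, 2.16 and 2.52 in Cntrl ZT12 mice, 2.28, 2.03 and 1.92 in Libramed ZT0 mice and 2.38, 1.09 and 1.69 in Libramed ZT12 mice. The groups overlapped, and the log2 fold change over both treatments was −0.11 with a 95% interval of −0.40 to 0.17 (limma adjusted p = 0.547). The values of Sesn2 are uncertain, since its locus shares 6089 bases with Gm12981, a transcript that the annotation places on the same strand.

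Of the amino acid enzymes, only Psph was called in the main tests. PSPH carries out the last step of serine synthesis, in which phosphoserine is turned into serine. Psph (chromosome 5, 129765558 to 129787449, minus strand) was at 8.19, 6.97 and 9.55 FPKM in Cntrl ZT0 mice and at 4.78, 4.57 and 3.18 FPKM in Cntrl ZT12 mice. In Libramed mice it was at 8.60, 6.66 and 5.97 FPKM at ZT0 and at 5.17, 4.88 and 3.29 FPKM at ZT12. All 6 ZT0 mice were above all 6 ZT12 mice. The gene shares 452 bases with Cct6a on the opposite strand, so reads of that stretch may belong to either gene. Log2 fold changes were −0.84 ± 0.16 in Cntrl mice (limma adjusted p = 0.0246) and −0.57 ± 0.18 in Libramed mice (limma p = 0.0132, adjusted p = 0.0761), each with an exact permutation p of 0.1. Over both treatments it was −0.71 ± 0.13 (limma adjusted p = 0.00153, exact permutation p = 0.005). The call in Cntrl mice alone was lost without any 1 of Cntrl ZT0 replicate 1 or 3 or Cntrl ZT12 replicate 2 or 3 (adjusted p 0.0536 to 0.0856) and with no minimum FPKM (limma adjusted p = 0.0800), and that over both treatments was kept without each of the 12 libraries in turn.

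The other serine enzymes were barely measured. PHGDH and PSAT1 carry out the earlier steps of the same pathway. Psat1 was at 0.779, 0.401 and 0.602 FPKM in Cntrl ZT0 mice, 0.0867, 0.546 and 0.644 in Cntrl ZT12 mice, 0.486, 0.192 and 0.552 in Libramed ZT0 mice and 0.218, 0.0395 and 0.384 in Libramed ZT12 mice. The times overlapped within both treatments, and the exact permutation p over time was 0.17. Phgdh was listed at 0 in 3 of 3 Libramed ZT12 mice and did not exceed 0.0633 FPKM in any mouse, a level at which no difference could be seen. The only enzyme of this 3-step pathway with a level above 1 FPKM was therefore its last.

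Asns encodes asparagine synthetase, which makes asparagine from aspartate with nitrogen from glutamine and is a long-studied target of ATF4. Asns (chromosome 6, 7675169 to 7693254, minus strand) was at 3.27, 10.5 and 13.4 FPKM in Cntrl ZT0 mice. It was at 1.46, 5.28 and 4.83 FPKM in Cntrl ZT12 mice, 2.29, 5.14 and 4.07 FPKM in Libramed ZT0 mice and 2.60, 5.64 and 0.768 FPKM in Libramed ZT12 mice. The pair of high values, in Cntrl ZT0 mice 2 and 3, lay above every other library, whereas Cntrl ZT0 mouse 1 was inside the range of all other groups. That mouse had the highest Atf4 of its group, at 159 FPKM. Within groups Asns varied between 2.24 and 7.34 times from the lowest to the highest mouse. The log2 fold change over time was −0.99 ± 0.53 in Cntrl mice (limma adjusted p = 0.279), −0.43 ± 0.46 in Libramed mice (adjusted p = 0.596) and −0.71 ± 0.38 over both (95% interval −1.54 to 0.13, limma adjusted p = 0.191, exact permutation p = 0.155). Without Libramed ZT12 replicate 3, the lowest library at 0.768 FPKM, the value in Libramed mice was 0.06 (limma adjusted p = 0.931). In Cntrl mice Asns was called with a Cyber-T kind of test, the kind the study used (Cyber-T adjusted p = 0.0400). It was also called there with the replicate number as a block, and in no other run.

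Counted over the group, lower levels at ZT12 prevailed. In Cntrl mice 3 of the 8 genes tested were called lower at ZT12 (Atf5, Ddit3 and Psph) and none higher, where 4.78% of all 9806 genes were called lower and 10.4% in either direction. In Libramed mice 1 was called, Atf5, beside 5.36% lower and 12.4% in all. Over both treatments 5 were called lower (Atf5, Psph, Trib3, Ddit3 and Atf4) and none higher, beside 13.8% of all genes lower and 29.7% in either direction. The median log2 fold change of the 8 genes was −0.71, and that of all genes 0.01. At an unadjusted p under 0.05, 5 of the 8 were lower in Cntrl mice (13% of all genes) and 3 in Libramed mice (13.4%). In Cntrl mice 5 of the 8 were lower at ZT12 without overlap between the times, and in Libramed mice 4, where 15.8% of all genes were so in each. The 5 calls over both treatments became 3, Atf5, Psph and Trib3, on leaving out any 1 of Cntrl ZT0 replicate 1 or 3 or Cntrl ZT12 replicate 1, 2 or 3, and in Libramed mice 2 genes, Atf5 and Ddit3, were called without Libramed ZT12 replicate 3. In bulk liver, fewer cells of a type and less RNA per cell cannot be told apart.

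**Figure D2:**
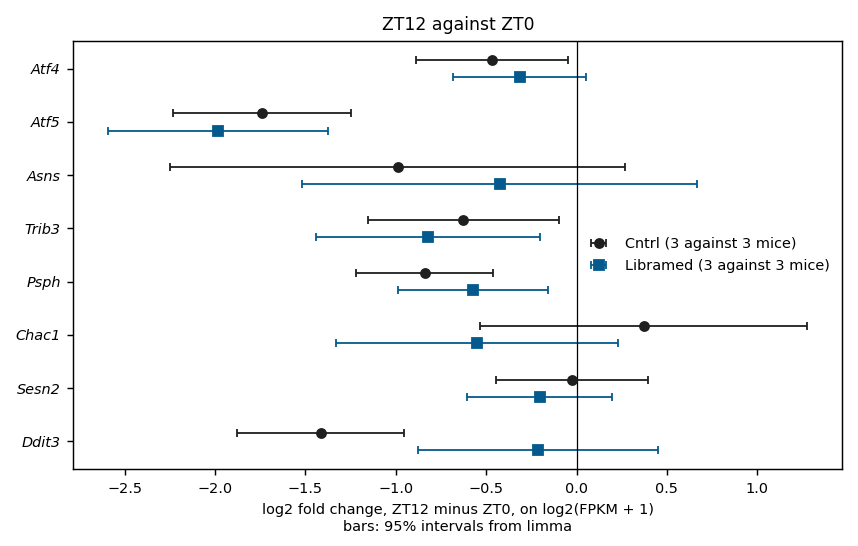
Log2 fold change of ZT12 against ZT0 (x axis, on log2(FPKM + 1)) for the 8 genes tested (y axis), black circles for Cntrl mice and blue squares for Libramed mice, with 95% intervals from limma (3 against 3 mice). Atf5 lies far below 0 in both (−1.74 and −1.98), and Ddit3 is at −1.42 in Cntrl and −0.22 in Libramed mice.

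The treated and control mice were then compared at each time. None of the 8 genes was called at ZT0, at ZT12 or over both times, in a table where limma called 0 genes (0%) at ZT0, 0 (0%) at ZT12 and 2 (0.0204%) over both times. At an unadjusted p under 0.05 in either direction, 9.23% of all genes passed at ZT0, 6.74% at ZT12 and 10.1% over both times. Of the 8 genes, 1 passed at ZT0 and 0 at ZT12 or over both times. That gene was Ddit3, at 38.8, 23.0 and 33.3 FPKM in Cntrl and 17.9, 16.6 and 20.8 FPKM in Libramed mice at ZT0. The groups did not overlap, as in 9.94% of all genes in this direction, and the Cntrl mean was 1.72 times the Libramed mean. The log2 fold change was −0.73 ± 0.19 (limma p = 0.00645, adjusted p = 0.436, exact permutation p = 0.1, the smallest that 3 against 3 mice allow).

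For the other genes the intervals show what sizes remained possible. At ZT0 the log2 fold change of treated against control mice was 0.01 for Atf4 (95% interval −0.51 to 0.54) and 0.09 for Atf5 (−0.29 to 0.47). It was −0.93 for Asns (−1.999 to 0.14), whose Cntrl mean of 9.04 ± 5.20 FPKM (SD, n = 3) was 2.36 times the Libramed mean of 3.83 ± 1.44 FPKM (SD, n = 3), with overlap between the groups. At ZT12 the narrowest interval was that of Atf4, at 0.17 (−0.02 to 0.35), and Asns was at −0.36 (−1.64 to 0.91), or 0.12 without Libramed ZT12 replicate 3. Chac1 was at −0.79 at ZT12 (−1.69 to 0.11, limma adjusted p = 0.729, exact permutation p = 0.2), with 4.44 ± 2.92 FPKM (SD, n = 3) in Cntrl and 1.94 ± 0.84 FPKM (SD, n = 3) in Libramed mice. Psph stayed between −0.20 and 0.07 at both times, with intervals inside −0.56 to 0.50. These are wide limits for the low genes, and with 3 mice a group a difference of any size inside them remained possible.

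**Figure D3:**
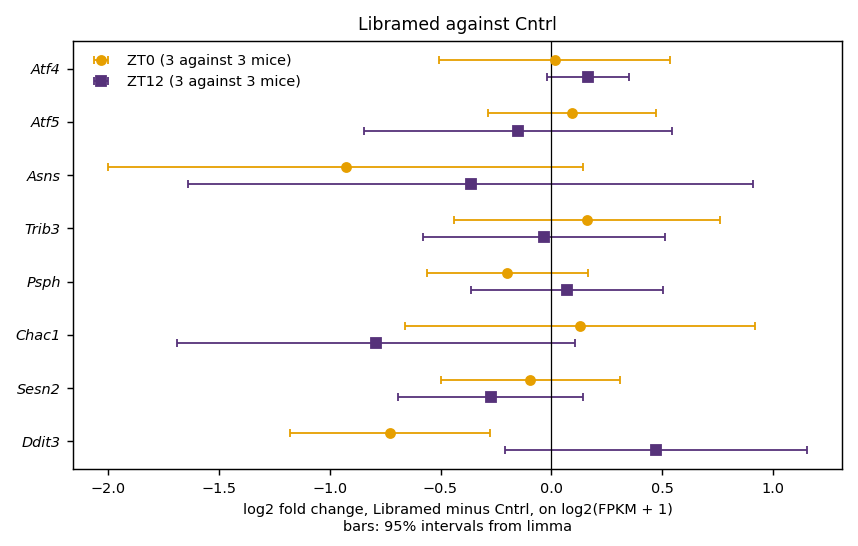
Log2 fold change of Libramed against Cntrl mice (x axis, on log2(FPKM + 1)) for the 8 genes tested (y axis), orange circles at ZT0 and purple squares at ZT12, with 95% intervals from limma (3 against 3 mice). The interval of Ddit3 at ZT0 (−1.18 to −0.28) is the only one that leaves out 0.

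The treatment and the time of day were last fitted together, to ask whether the time difference itself differed between treatments. Of the 8 genes 0 were called, as of all genes (0%). At an unadjusted p under 0.05 1 passed, Ddit3, beside 6.63% of all genes. Its fall from ZT0 to ZT12 was smaller in Libramed mice by 1.20 ± 0.38 on the log2 scale (limma adjusted p = 0.597). Without Libramed ZT12 replicate 3, the library with muscle transcripts and the highest Ddit3 at ZT12, the difference was 0.85 (limma adjusted p = 0.640). The other 7 genes had differences between −0.92 (Chac1) and 0.56 (Asns), each with a 95% interval that included 0. Macrophage markers summed to 28.8 to 35.9 FPKM in Cntrl ZT0, 16.0 to 28.5 in Libramed ZT0, 14.5 to 40.8 in Cntrl ZT12 and 20.02 to 30.7 FPKM in Libramed ZT12 mice. The sum was over the 8 markers in the table, none at 0 in all libraries. At an unadjusted limma p under 0.05, 3 of the 5 tested were lower in Libramed mice at ZT0, beside 5.81% of all genes. Genes of other lists, given below, moved in this direction too. The part of macrophages in the Ddit3 values was not tested.

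The genes of the kinases and phosphatase subunits of eIF2α, which act before ATF4, were described next. Their mRNA levels do not measure the phosphorylation of eIF2α. Over both treatments 1 of the 7 genes tested of this list was called lower at ZT12 and 2 higher, with a list median of 0.03. For this list and those that follow, the same comparison called 1353 of all 9806 genes lower (13.8%) and 1557 higher. The 1 lower of 7 was near the share of all genes. Eif2ak3, the gene of PERK, was the one that fell: 6.40, 6.59 and 8.03 FPKM in Cntrl ZT0 mice became 4.53, 3.01 and 2.97 FPKM at ZT12, and 5.24, 4.36 and 5.60 FPKM in Libramed ZT0 mice became 2.75, 3.44 and 3.21 FPKM. The times did not overlap within either treatment. Eif2ak3 had a log2 fold change of −0.70 ± 0.10 over both treatments (limma adjusted p = 0.000434), and was called in Cntrl mice (−0.84, adjusted p = 0.0218) and in Libramed mice (−0.55, adjusted p = 0.0235). Without Libramed ZT12 replicate 3 the value in Libramed mice was −0.57 and no longer called (limma adjusted p = 0.0625), while that over both treatments was −0.72 and called (adjusted p = 0.00102). Ppp1r15b, the constant phosphatase subunit, and Eif2ak1, the gene of the heme-regulated kinase HRI, were higher at ZT12 by 0.34 and 0.20 on the log2 scale (limma adjusted p = 0.000698 and 0.0357). Without that library Eif2ak1 was no longer called (limma adjusted p = 0.0719) and Impact, which holds back GCN2, was called lower (−0.30, adjusted p = 0.0430), so that 2 of the list were lower and 1 higher. Eif2ak4, the gene of the amino acid sensor GCN2, was at 1.46 to 2.21 FPKM in all mice with a log2 fold change of 0.03, and Ppp1r15a, the inducible phosphatase subunit and an ATF4 target, was at 3.99 to 7.20 FPKM with 0.12, neither called.

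**Figure D4:**
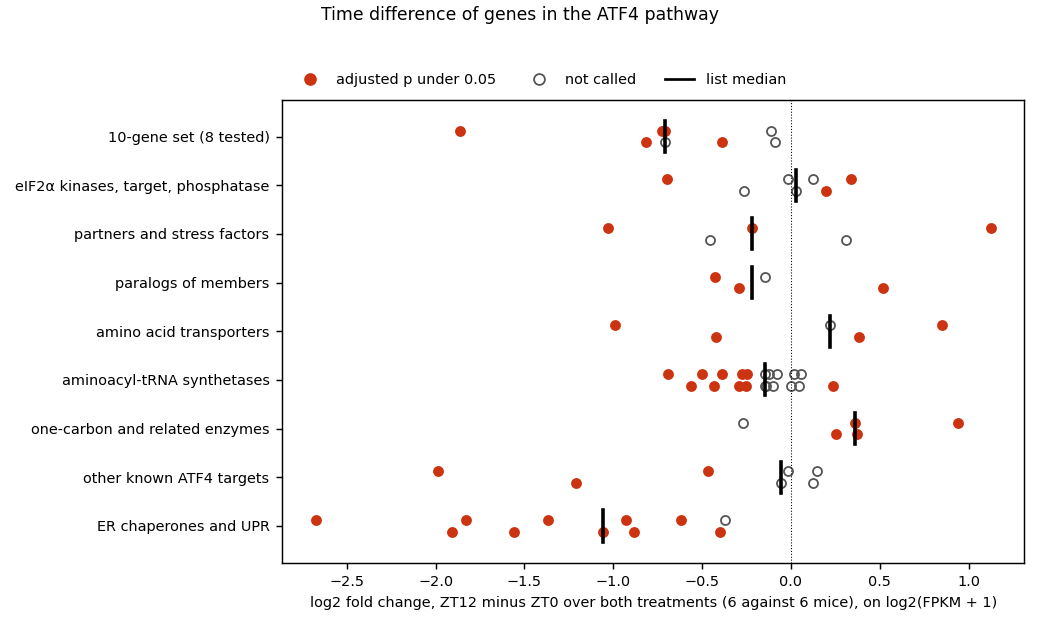
Log2 fold change of ZT12 against ZT0 over both treatments (x axis, 6 against 6 mice, on log2(FPKM + 1)), one point per gene tested, for the 10-gene set and 8 lists of the pathway (y axis). Red points are called at an adjusted p under 0.05 (limma), open points are not, and black bars are list medians; the 10-gene set and endoplasmic reticulum chaperones lie mostly below 0 (medians −0.71 and −1.06) and one-carbon enzymes mostly above (0.36).

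Partners and close relatives of ATF4 and its targets went both ways. Of 5 partners and stress factors tested 2 were lower and 1 higher at ZT12, beside 13.8% of all genes lower and 29.7% in either direction. Cebpb, a C/EBP partner of ATF4 that also serves the acute phase and gluconeogenesis, rose by 1.12 ± 0.17 (limma adjusted p = 0.000401), from 81.2, 64.1 and 61.4 FPKM in Cntrl ZT0 mice to 154, 81.6 and 125 FPKM at ZT12. In Libramed mice it was at 51.6, 49.8 and 45.3 FPKM at ZT0 and at 149, 133 and 136 FPKM at ZT12, with no overlap of times in either treatment. Nupr1, a stress-induced chromatin protein, had a log2 fold change of −1.03 and Cebpg, the constant heterodimer partner of ATF4, of −0.22 (limma adjusted p = 0.000874 and 0.0297). Cebpg was no longer called without Libramed ZT12 replicate 3 (limma adjusted p = 0.0571). Among 4 paralogs of the 10 genes, the Trib3 relative Trib1 was higher (0.52) and the Sesn2 relatives Sesn1 and Sesn3 were lower at ZT12 (−0.43 and −0.29; limma adjusted p = 0.000989, 0.00680 and 0.0194).

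The genes that use amino acids fell into parts with different directions. Of 20 cytosolic aminoacyl-tRNA synthetases, which load tRNAs and many of which ATF4 induces, 9 were lower and 1 (Dars) higher at ZT12, with a median of −0.15, beside 13.8% of all genes lower and 29.7% in either direction. The largest were Tars (−0.69), Wars (−0.56), Cars (−0.50) and Yars (−0.44), with limma adjusted p from 0.000172 to 0.00122. Without Libramed ZT12 replicate 3, 9 of the 20 were lower and 0 higher, Dars being lost (limma adjusted p = 0.0845). Of 5 amino acid transporters tested 2 were lower, Slc1a4 and Slc1a5 (−0.99 and −0.42; limma adjusted p = 0.000604 and 0.0466), and 2 higher, the glycine carrier Slc6a9 and the neutral amino acid carrier Slc38a2 (0.85 and 0.38; limma adjusted p = 7.51e-06 and 0.0217). Slc6a9 was at 8.77 to 10.4 FPKM in all ZT0 mice and at 16.9 to 21.0 FPKM in all ZT12 mice. Without that library 1 transporter was lower and 1 higher, Slc1a5 and Slc38a2 being no longer called (limma adjusted p = 0.0941 and 0.0505). Slc7a11, the cystine carrier and a strong ATF4 target, was listed at 0 in all mice but 1, where it was at 0.00327 FPKM.

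Of 5 one-carbon and related enzymes tested, 4 were higher at ZT12 and 0 lower, beside 1557 of all 9806 genes higher. Gpt2, a mitochondrial alanine transaminase, had a log2 fold change of 0.94 (limma adjusted p = 1.33e-05), and the serine hydroxymethyltransferases Shmt1 and Shmt2 and the folate enzyme Mthfd1 of 0.37, 0.36 and 0.26 (adjusted p = 0.00778, 0.000106 and 0.00935). The list had 4 genes higher and 1 lower without Libramed ZT12 replicate 3, the last being Cth, which makes cysteine from cystathionine (−0.35, limma adjusted p = 0.0125). The 4 are abundant liver enzymes, at 66.5 to 228 FPKM in all mice, whereas 5 others of the list of 10 were under 1 FPKM on average. Mthfd2, the mitochondrial folate enzyme that ATF4 is known to induce, was one of those not tested, and was looked at after its values were seen: its means were 1.56 FPKM in Cntrl ZT0, 0.282 in Cntrl ZT12, 0.951 in Libramed ZT0 and 0.358 in Libramed ZT12 mice. Mthfd1l, also not tested, went the other way. Its means were 0.198 FPKM in Cntrl ZT0, 0.414 in Cntrl ZT12, 0.118 in Libramed ZT0 and 0.287 in Libramed ZT12 mice. The rest not tested, Aldh1l2, Pycr1 and Aldh18a1, had highest values of 0.0783, 0.202 and 0.345 FPKM.

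Beside 13.8% of all genes, 3 of 7 other genes known as ATF4 targets were lower at ZT12 and 0 higher. The secreted stress signals Gdf15 and Fgf21 led them (−1.99 and −1.21; limma adjusted p = 0.000144 and 0.0357), followed by Sqstm1, which carries cargo to autophagy (−0.47, adjusted p = 6.78e-05). Gdf15 was at 19.2, 11.8 and 20.9 FPKM in Cntrl ZT0 mice and 7.23, 1.47 and 3.17 FPKM in Cntrl ZT12 mice. In Libramed mice it was at 13.2, 20.8 and 12.9 FPKM at ZT0 and at 3.98, 3.05 and 2.65 FPKM at ZT12, so that all ZT0 mice were above all ZT12 mice. Fgf21 was at 12.1, 8.27 and 5.93 FPKM in Cntrl ZT0 mice, 5.45, 2.86 and 6.90 in Cntrl ZT12 mice, 8.23, 13.3 and 18.9 in Libramed ZT0 mice and 10.5, 1.80 and 1.30 in Libramed ZT12 mice. Its times overlapped within both treatments, and without Libramed ZT12 replicate 3, the lowest of the 12 libraries, it was at −0.96 and no longer called (limma adjusted p = 0.0739), which left 2 of the 7 genes lower. Eif4ebp1, a translation repressor that ATF4 induces, was at 0.15 (adjusted p = 0.0868).

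Chaperones of the endoplasmic reticulum, which answer to the XBP1 and ATF6 branches and share PERK's trigger, served as a comparison. This list too was chosen with earlier results of these data known. Of 11 tested 10 were lower at ZT12 over both treatments, beside 13.8% of all genes, with a median of −1.06 and the largest changes in Sdf2l1 (−2.67), Creld2 (−1.91), Manf (−1.83) and Hyou1 (−1.56), limma adjusted p from 6.06e-06 to 0.000987. In Libramed ZT12 replicate 3, where Ddit3 was highest of its time, Sdf2l1 was at 24.2 FPKM against 11.3 to 20.5 FPKM in the other ZT12 mice. Hspa5, Hsp90b1, Dnajb9, Dnajc3, Creld2, Manf, Hyou1 and Edem1 were also highest of their time there. Pdia6 was not, and Xbp1 (82.9 FPKM) was the lowest of the 12 libraries. Of the 10-gene set, Trib3 (3.57 FPKM) was highest of its time there. Atf5 (81.6 FPKM), Asns (0.768) and Chac1 (1.34) were the lowest of the 12. The cause was not tested. Without that library 10 of the 11 were again lower.

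No gene of these lists was called between treated and control mice at either time, over both times or in the difference between time effects. At an unadjusted limma p under 0.05, the chaperone list had 9 of 11 genes lower in Libramed mice at ZT0, with a median of −0.50, beside 5.81% of all genes. These included Dnajb9 (−0.73) and Creld2 (−1.11; adjusted p = 0.336 and 0.506). Eif2ak3 was also in this direction (−0.40 ± 0.12, limma adjusted p = 0.474), without overlap of the groups. At that p, 1 of 5 partners (Cebpb, −0.48) and 2 of 7 other ATF4 targets were lower at ZT0 too. Of 4 paralogs 1, Trib1, was higher (0.33), beside 9.23% of all genes in either direction. At ZT12 the chaperone list had 0 of 11 genes at that p in either direction. Of the 20 synthetases 1 was lower at ZT0 and 0 differed at ZT12 by this measure, and of the 5 transporters 0 at either time. At ZT12 1 of 5 partners, Ddit4, was higher (1.32, limma adjusted p = 0.729), beside 6.74% of all genes in either direction. Ddit4 had time differences of −0.78 in Cntrl and 1.39 in Libramed mice. In the difference between time effects 2 of 5 partners, 2 of 11 chaperones and 2 of 20 synthetases passed, all above 0. So did 1 of 7 other ATF4 targets, and 1 of 4 paralogs passed below 0, beside 6.63% of all genes.

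Likeness of profiles over the 12 libraries was described for Atf4 and Asns by the root mean square difference of values scaled to a mean of 0 and an SD of 1. The genes closest to Atf4 were Slc39a3 (0.347), Crb3 (0.382), Trp53i11 (0.384), Pitpnb (0.385) and Med28 (0.404), where the median over all genes was 1.37. Among the other genes of the set Trib3 was closest to Atf4 (0.604), then Atf5 (0.715), Ddit3 (0.799) and Psph (0.859), while Chac1 (1.20), Asns (1.21) and Sesn2 (1.503) were near the median of all genes. The genes closest to Asns were Lmbrd2 (0.414), Col4a1 (0.496), Dna2 (0.498), Luzp1 (0.517) and Lnx2 (0.520), and no gene of the set came nearer than Psph (0.998). All of these profiles share the same 12 libraries and the same depth.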

How the data were processed

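Liver RNA of 12 mice was measured by RNA-seq, 3 mice in each of 4 groups taken from the labels, with no other source of grouping. The authors deposited their values as FPKM in 1 table, genes by libraries, without read counts. Per the labels the submitters' processing notes name TopHat, Cuffnorm, mm10 and GRCm38, whereas the study's methods describe ELAND alignment to mm10, uniquely matching reads and RPKM, and also differ from the labels on whether the libraries were stranded. No column was left unused. The table had 24138 lines, 289 of which repeated a symbol. Keeping the most abundant line of each gave 23849 symbols, with 6783 at 0 throughout.

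Values were analysed as log2(FPKM + 1) for the 9806 symbols with a mean of at least 1 FPKM, in limma 3.58.1 under R 4.3.3. Linear models were moderated with eBayes and its trend option, and tests were two-sided with Benjamini-Hochberg adjustment over all symbols tested and calls at an adjusted p under 0.05. Counts at an unadjusted p under 0.05 are given beside them. The study called genes at a Cyber-T p under 0.05 and does not state whether it was adjusted. At the unadjusted threshold limma passed 905 genes between treated and control mice at ZT0 and 661 at ZT12. The study reported fewer genes at each time, and more at ZT12 than at ZT0. Comparisons of 2 groups were fitted on 6 libraries, and the interaction and the effects over both times or treatments on 12. Exact permutation tests of single genes used 20 or 400 arrangements. The script was tested on simulated data.

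All 10 genes are named, as are the called genes of the pathway lists, at most the 4 largest per list, the eIF2α kinases and phosphatase subunits, and the 5 genes most like Atf4 and Asns. The genes and lists were chosen with earlier results of these data known. Gene positions are from GENCODE vM21 and promoters from RefSeq (GRCm38.p6). Depth is known only relative to the other libraries, so the spread between mice sets the precision. Alternatives were a pseudocount of 0.1, no minimum, a minimum of 5 FPKM, no trend, median-ratio and quantile scaling, a replicate block, a fit over all 12 libraries, a Cyber-T kind of test (window of 101 genes, prior weight 10), the unadjusted threshold, and each library left out.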

Additional observations from a re-analysis of the deposited data

Results flagged for a closer look

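Ddit3 was the 1 result marked for a closer look, because its difference between ZT12 and ZT0 was not the same in both treatments by the interaction test at an unadjusted p under 0.05. The difference between the time effects was 1.20 on the log2 scale (limma adjusted p = 0.597), so it failed the correction over all genes tested. The ZT12 mice were lower than the ZT0 mice without overlap in Cntrl (9.57 to 12.6 against 23.0 to 38.8 FPKM), and overlapped in Libramed (11.6 to 26.2 against 16.6 to 20.8 FPKM). The overlap in Libramed came from ZT12 replicate 3 alone, the library with muscle transcripts, without which the Libramed time difference was −0.57 (limma adjusted p = 0.0476) and the difference between the time effects 0.85 (limma adjusted p = 0.640). Over the libraries left out in turn the difference was 0.85 to 1.41 with adjusted p from 0.468 to 0.815. Groups of 3 were too small for a test of single outlying mice.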

How the results depend on the processing

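No called difference of the 8 genes tested changed direction under any alternative run. Over both treatments the 5 genes called lower at ZT12 became 3 without a minimum FPKM and were 3 to 5 on leaving out 1 library at a time. In Cntrl mice the 3 called became 5 with the Cyber-T kind of test, which added Trib3 and Asns. They were also 5 at the unadjusted threshold, which added Trib3 and Atf4. They became 2 with no minimum FPKM, where Psph was lost (limma adjusted p = 0.0800), and 2 to 4 without 1 library. In Libramed mice the 1 called became 3 with the Cyber-T kind of test or the unadjusted threshold, and 1 to 2 without 1 library, Ddit3 being the gene gained without Libramed ZT12 replicate 3. The counts of 0 between treated and control mice at ZT0 and for the interaction became 1 each, Ddit3, at the unadjusted threshold, and the counts of 0 at ZT12 and over both times stayed at 0 in every alternative run. Scaling moved the median of all genes by less than 0.1. The list counts without Libramed ZT12 replicate 3 were added after seeing the data. In Libramed mice the calls there went from 2 to 0 for eIF2α kinases and phosphatases, 2 to 1 for partners, 1 to 0 for paralogs, 4 to 1 for synthetases, 2 to 1 for one-carbon enzymes and 7 to 5 for chaperones, where calls over all genes went from 1212 to 596. The causes were not tested.

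Only differences that were not called changed sign, each on leaving out 1 library, with these lowest and highest values. In the time difference of Cntrl mice these were Sesn2 (−0.22 to 0.082) and Chac1 (−0.034 to 0.71), in that of Libramed mice Asns (−0.89 to 0.063) and over both treatments Chac1 (−0.32 to 0.076). Between treated and control mice at ZT0 these were Atf4 (−0.17 to 0.19), Atf5 (−0.052 to 0.22), Trib3 (−0.046 to 0.40), Chac1 (−0.13 to 0.49) and Sesn2 (−0.29 to 0.013), and at ZT12 Atf5 (−0.46 to 0.076), Asns (−0.83 to 0.12), Trib3 (−0.23 to 0.20) and Psph (−0.077 to 0.23). In the difference between time effects they were Atf4 (−0.022 to 0.34), Trib3 (−0.43 to 0.042) and Sesn2 (−0.35 to 0.019).

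Replicate numbers did not pair the mice: deviations of libraries with the same number correlated between −0.279 and 0.341, and in no pair of groups were all above 0.1. With the replicate number as a block, 2 genes were called in Libramed mice (Psph at adjusted p = 0.0436, beside Atf5), and Psph and Ddit3 were no longer called in Cntrl mice (limma adjusted p = 0.0835 and 0.0516) while Asns was (−0.99, limma adjusted p = 0.0413), so that 2 were called there. Without read counts no counting error can be given, and at the level of Psat1 and Phgdh differences were not detectable.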
